A study of Mus musculus with 8 samples.

Results

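The cells described here are B lineage precursors from adult mouse tibia that carry Vpreb3 transcripts, and their transcriptomes were recorded one cell at a time with the 10x Genomics droplet assay. A barcode was counted when at least 1000 genes were detected, at most 20% of its unique molecular identifiers (UMIs, each standing for 1 captured transcript) were mitochondrial, Cd79a had at least 3 UMIs and Vpreb3 at least 2, Dntt had 0, Ms4a1 had at most 1, and S100a8 was below 100 UMIs per 10000 UMIs of the barcode. Of 12564 deposited barcodes, 7989 met the gene and mitochondrial limits, and 1303 of these met the whole rule (16.3%, exact Clopper-Pearson 95% interval 15.5% to 17.1%). They were 53.0% of the 2457 barcodes with Cd79a at this level and S100a8 below its limit. These counts of Cd79a, Vpreb3, Dntt, Ms4a1, S100a8, Mki67 and Top2a chose the cells, so every value below describes cells selected by their own transcripts.

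The study followed bone-forming cells that descend from hypertrophic chondrocytes, and the cells came from tibiae of mice at 8 weeks of age (P56) and no treatment. All mice were MMP14 F/+, with 1 floxed allele, and carried COL10A1cre, a Cre active in hypertrophic chondrocytes, the R26-tdT reporter of Cre activity and the transgene Col1a1-2.3-GFP, which labels bone-forming cells, and there was no group without them. Cells of 3 mice were pooled, and the 8 labelled samples of the single group were deposited as 1 matrix in which no barcode names its sample and no barcode occurs more than once. The labels call the material chondro-osteogenic, the protocol discarded early digests that hold most blood cells, and the study set aside clusters with the blood cell marker Ptprc, so the cells described here are blood-lineage cells that remained in the digest. There are no replicates and no test was possible. Intervals cover counting error only, and a share or ratio was not compared between mice.

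B cells form in bone marrow through ordered stages. Pro-B cells rearrange the heavy chain locus with the RAG recombinase and the Dntt polymerase, and a successful heavy chain pairs with the surrogate light chain, encoded by Vpreb1, Vpreb2 and Igll1, to make the pre-B receptor. Large pre-B cells divide in response to that receptor and interleukin 7. They then leave the cycle as small pre-B cells, express RAG again to rearrange kappa or lambda light chain genes, and become immature B cells that show IgM. Vpreb3 encodes a related protein that binds newly made heavy chains, and Myl4, a myosin light chain, Il7r, the interleukin 7 receptor, and Bach2, a repressor of plasma cell genes, served as its companion markers.

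The levels of those markers are given next, and since the rule used Vpreb3, its own level is no check of the label. Vpreb3 (ENSMUSG00000000903, mouse genome mm10, chr10:75943057-75949657, plus strand) reached 1719 counts per 1000000 UMIs of the summed cells (CPM), and its level per 10000 UMIs of a cell had a median of 19.97 and a highest value of 94.2. Myl4, which the rule did not use, had 494 CPM and at least 1 UMI in 62.0% of the cells, Il7r had 261 CPM in 60.3%, and Bach2 had 478 CPM in 83.9%. In 2390 barcodes with S100a8 at or above the limit, which are neutrophil-type and should lack these genes, a UMI of Myl4, Il7r or Bach2 was seen in 3.35%, 3.68% and 6.07%, at a median of 7416.5 UMIs against 3543 in the Vpreb3 cells. These 3 markers stood above that background in both share and level. The contrast is with neutrophil-type barcodes and does not tell the cells from other B lineage stages. Bach2, for example, was also seen in 72.2% of the 162 Dntt cells described below. The median cell had 1462 genes, and totals ran from 1814 to 60109 UMIs.

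The thresholds cut through a continuum. The 101 cells with exactly 2 Vpreb3 UMIs had Myl4 at 80.2 CPM and Cd74, the class II invariant chain, at 1808 CPM, and 108 barcodes with 1 Vpreb3 UMI that met the other limits had 49.4 and 3643 CPM. The 118 cells with 1 Ms4a1 UMI had Rag1 at 147 CPM, and 74 barcodes with 2 Ms4a1 UMIs had 39.6 CPM. The 34 barcodes with 1 Dntt UMI had Vpreb1 at 661 CPM, against 203 CPM over the Vpreb3 cells. The 122 barcodes within 100 genes below the gene floor that met all other limits had Rag1 at 753 CPM and Ly6d at 2887 CPM, and the 177 cells within 100 genes above it had 562 and 2458 CPM.

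Some barcodes held transcripts of another cell type. Of the 1303 cells, 112 (8.596%) held at least 10 UMIs of Jchain, Col2a1, Lyz2, Mpo, Elane or Prss34, or Hbb-bs at 500 or more per 10000 UMIs, and are called mixed barcodes. Erythroid markers summed to 42550 CPM over all cells but to 2609 CPM without the mixed barcodes, chondrocyte markers to 1479 and 53.9 CPM, and monocyte or macrophage markers to 569 and 57.1 CPM. Neutrophil markers summed to 1628 and 1145 CPM, with a median of 12.3 per 10000 UMIs of a cell, plasma cell markers to 1504 and 523 CPM, and T or NK cell markers to 24.9 and 16.0 CPM. In at least 10% of the cells, 8 of 10 neutrophil markers, 4 of 7 erythroid, 4 of 7 mature B, 3 of 6 plasma cell and 0 of 8 T or NK cell markers were seen. Scrublet called 69 of the cells doublets (5.30%), of which 45 were mixed barcodes. These barcodes were kept, and values without the mixed ones are given where they move a result.

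Of the 1303 cells, 459 held at least 2 UMIs of Mki67 and Top2a together and are called cycling (35.2%, 32.6% to 37.9%), 763 held 0 and are called non-cycling (58.6%, 55.8% to 61.2%), and 81 held exactly 1 and were placed in neither. Mki67 marks cells in cycle and Top2a unlinks replicated chromosomes. Cycling cells had a median of 8847 UMIs and 2686 genes, against 2871 UMIs and 1241 genes in non-cycling cells, and ribosomal protein transcripts made up 21.9% and 16.97% of their UMIs. After each cell was thinned to 2000 UMIs the cycling share was 29.4%, with 10 shallower cells left out. With the study's floor of 1600 genes 569 cells remained, of which 76.8% were cycling. The 81 cells in between had a median of 3421 UMIs and Rag1 at 240 CPM, which lay between the other groups.

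Over the 8651 genes with at least 50 UMIs in the groups together, 1300 (15.0%) were at least 2-fold higher in cycling cells and 1107 (12.8%) at least 2-fold lower, with a median log2 ratio of -0.09. Because the groups differ in depth, the comparison was repeated on cells of 3000 to 6000 UMIs, 79 cycling and 263 non-cycling whose medians, 5226 and 3443 UMIs, were closer but not equal. There, 314 of 3807 genes (8.25%) were at least 2-fold higher and 284 (7.46%) at least 2-fold lower. Values from it are given below as those of the narrowed range of depth. Without mixed barcodes, neutrophil markers summed to 668 CPM in cycling and 2035 CPM in non-cycling cells and erythroid markers to 2009 and 3768 CPM, and their part in the differences was not tested.

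Cell cycle genes showed the widest separation, and since Mki67 and Top2a chose the groups this is a description of how cleanly the split fell. All 30 measured S phase genes and all 38 measured genes of G2 and mitosis were at least 2-fold higher in cycling cells, with median log2 ratios of 3.87 and 5.02. In the narrowed range this held for 22 of 22 and 22 of 22, with medians of 3.94 and 4.62. Ccna2, the cyclin of S and G2 phase, had 218 CPM and a UMI in 77.3% of cycling cells, against 0.721 CPM and 0.262% of non-cycling cells, a log2 ratio of 8.24 (6.38 to 11.29). Pclaf, a PCNA-binding replication factor, had 1036 against 9.37 CPM, Mcm5, a subunit of the replicative helicase, 200 against 13.3 CPM, and Birc5, the chromosomal passenger survivin, 415 against 7.57 CPM. The 10 highest log2 ratios otherwise belonged to Pbk at 8.12, E2f8 at 7.59, Nek2 at 7.45, Ska1 at 7.38, E2f7 at 7.13, Kif4 at 6.97, Cep55 at 6.97, Spc24 at 6.80 and Pclaf at 6.79. E2f7 and E2f8 are repressors of the E2F family, and Nek2, Ska1, Kif4, Cep55 and Spc24 act in centrosomes, kinetochores, spindles or abscission.

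The sequences before the start sites of 3 G2 and mitosis genes are shown for the cell cycle element they hold, next to B lineage genes for contrast. Windows are from RefSeq on GRCm38.p6, read 5′ to 3′ on the strand of the gene and shortened so that no annotated exon base is shown. Capitals mark TTTGAA, the cell cycle homology element, CCAAT, the NF-Y box, and CAGGTG, an E-box bound by E2A proteins, on either strand, and no motif contains another. The windows are Ccnb2 (chr9:70421555-70421734, minus), which encodes cyclin B2, Cdk1 (chr10:69352939-69353118, minus), its kinase, Cdc20 (chr4:118437353-118437532, minus), an activator of the anaphase promoting complex, Igll1 (chr16:16863986-16864165, minus), Cd79a (chr7:24897247-24897380, plus), the Ig-alpha chain, and Rag1 (chr2:101649533-101649712, minus).
Ccnb2: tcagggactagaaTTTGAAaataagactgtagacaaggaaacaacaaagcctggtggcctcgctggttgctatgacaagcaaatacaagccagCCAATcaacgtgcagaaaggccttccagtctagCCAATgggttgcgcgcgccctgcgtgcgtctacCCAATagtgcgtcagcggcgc
Cdk1: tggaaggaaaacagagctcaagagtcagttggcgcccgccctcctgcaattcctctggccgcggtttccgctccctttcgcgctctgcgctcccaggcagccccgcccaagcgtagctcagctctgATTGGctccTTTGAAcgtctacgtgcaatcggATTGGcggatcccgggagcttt
Cdc20: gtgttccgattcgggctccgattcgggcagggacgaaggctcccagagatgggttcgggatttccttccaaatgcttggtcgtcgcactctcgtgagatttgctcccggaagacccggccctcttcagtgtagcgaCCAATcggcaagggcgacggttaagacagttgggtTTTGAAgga
Igll1: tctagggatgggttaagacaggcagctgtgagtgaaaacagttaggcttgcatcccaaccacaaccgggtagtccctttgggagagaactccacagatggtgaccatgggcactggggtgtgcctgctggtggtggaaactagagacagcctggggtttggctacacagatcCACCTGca
Cd79a: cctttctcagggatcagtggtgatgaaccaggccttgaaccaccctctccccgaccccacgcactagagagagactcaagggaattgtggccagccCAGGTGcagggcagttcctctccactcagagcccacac
Rag1: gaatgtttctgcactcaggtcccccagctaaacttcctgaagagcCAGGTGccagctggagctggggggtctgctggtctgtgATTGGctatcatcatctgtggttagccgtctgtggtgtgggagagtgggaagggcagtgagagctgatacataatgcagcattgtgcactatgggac
Ccnb2, Cdk1 and Cdc20 each had 1 TTTGAA in the window and between 1 and 3 CCAAT, while Igll1, Cd79a and Rag1 had 1 CAGGTG each and no TTTGAA, and Rag1 also had 1 CCAAT. The shares below cover 32851 RefSeq windows of the full 300 bases, from 250 before to 50 after a start. Windows on 1 chromosome were left out, so list genes there are absent. TTTGAA was found in 17.9% of all these windows, against 74.3% of 35 windows of G2 and mitosis genes, 18.8% of 32 windows of S phase genes and 0 of 10 windows of pre-B receptor genes. Counting the 250 bases before the start alone, the shares were 16.0% over all and 34.3% for G2 and mitosis. CCAAT was found in 37.4% of all windows, 80.0% of the G2 and mitosis windows and 62.5% of the S phase windows, but also in 87.5% of 8 class II windows and 56.7% of 30 oxidative phosphorylation windows. TTTGGCGC, a letter form of the E2F site, was found in 0.514% of all windows and 18.8% of the S phase windows. CAGGTG was found in 20.2% of all windows, in 8 of 10 pre-B receptor windows, in 53.3% of 15 windows of maturation genes and in 7.14% of 14 windows of recombination genes. A match of letters is not a bound site.

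Genes of the pre-B receptor list went both ways. Of its 12 measured genes, 3 were at least 2-fold higher in cycling cells and 5 lower, against 15.0% and 12.8% over all genes. The higher ones were the surrogate light chain genes Vpreb1, Vpreb2 and Igll1. Among the lower ones were Cd79b, the Ig-beta chain, Ighm, the mu heavy chain, and the kinase Syk. The list median was -0.84. Vpreb1 had 282 CPM in cycling and 49.0 CPM in non-cycling cells, a log2 ratio of 2.52 (2.27 to 2.79), and Igll1 160 and 15.9 CPM, a log2 ratio of 3.33 (2.89 to 3.80). A Vpreb1 UMI was seen in 39.0% of cycling and 3.80% of non-cycling cells, in 20.8% and 2.96% after thinning, and in 1.84% of the S100a8 barcodes. In the narrowed range of depth the log2 ratios were 0.70 for Vpreb1 and 0.81 for Igll1, and none of the 10 measured genes of the list passed 2-fold, so a difference of the full size was seen only with deep cells included. Reads of Vpreb1 and Vpreb2, which are near-identical copies, can be split between them, and Vpreb2 levels are uncertain.

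The surrogate light chain was concentrated in a minority of the cycling cells. Vpreb1 and Igll1 together had 0 UMIs in 245 of the 459 cells, 1 to 4 in 93 and 5 or more in 121, and the last group (26.4% of the cells) held 93.2% of these UMIs. Of 179 cycling cells with Vpreb1, 140 also had Igll1 (78.2%). The cells with 5 or more had a median of 19364 UMIs, against 9020 and 7101 in the others. Without mixed barcodes, Rag1 stood at 147 CPM in the cells with none, 80.9 CPM in those with 1 to 4 and 12.9 CPM in those with 5 or more. Ly6d, a surface protein of B-committed precursors, went from 328 to 169 and 59.3 CPM, and Igkc, the kappa constant gene, from 1912 to 1447 and 426 CPM. Lef1, a transcription factor of early precursors, went the other way, from 104 to 129 and 238 CPM. Deeper cells are more likely to reach 5 UMIs, so depth moves with these groups and its part was not tested.

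The same genes also varied with depth. Without mixed barcodes, cycling cells of 3000 to 6000, 6000 to 12000 and at least 12000 UMIs (78, 210 and 112 cells) had Vpreb1 at 121, 79.9 and 537 CPM. In the same order Rag1 was at 229, 116 and 10.3 CPM, Ly6d at 397, 273 and 54.3 CPM, and Igkc at 1982, 1836 and 476 CPM. Non-cycling cells below 3000, of 3000 to 6000 and of 6000 to 12000 UMIs (431, 261 and 21 cells) had Rag1 at 655, 458 and 300 CPM and Ly6d at 2260, 1524 and 863 CPM. In the shared range of 3000 to 6000 UMIs, Rag1 and Ly6d remained higher in non-cycling cells, and Vpreb1, at 121 CPM (89.0 to 161) against 73.9 CPM (57.6 to 93.4), had overlapping intervals. At 6000 to 12000 UMIs Vpreb1 was lower in cycling cells, at 79.9 CPM (67.1 to 94.4) against 153 CPM (98.3 to 228), where 2 of the 21 non-cycling cells had its UMIs and 1 of them held 66.7%.

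**Figure D1:**
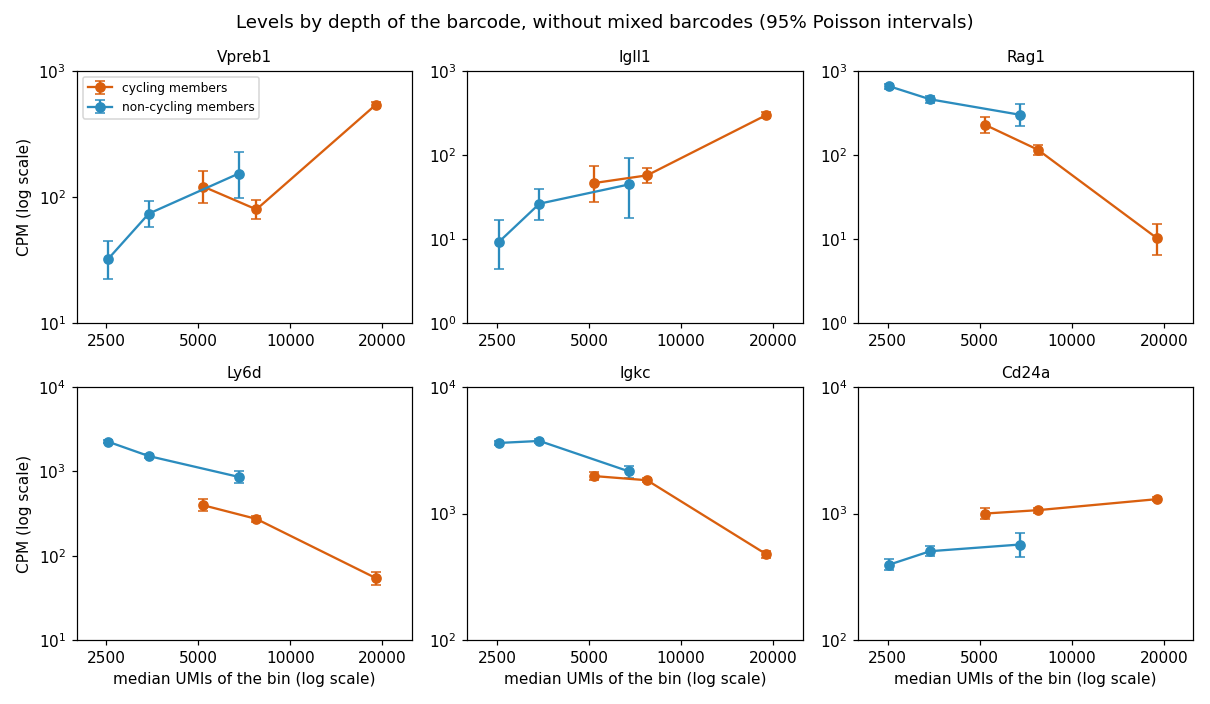
Levels in CPM (log axis) of genes of the pre-B receptor, recombination, maturation and light chain against the median UMIs of each depth bin (log axis), for cycling and non-cycling cells without mixed barcodes, with 95% Poisson intervals. Rag1 and Ly6d lie higher in non-cycling than in cycling cells of 3000 to 6000 UMIs, and Vpreb1 reaches 537 CPM in the deepest cycling bin.

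Of 12 measured recombination genes, 3 were at least 2-fold higher and 2 lower in cycling cells, against 15.0% and 12.8% over all genes. Rag1 (chr2:101638282-101649501, minus strand), the catalytic subunit of the recombinase, had 66.6 CPM in cycling and 452 CPM in non-cycling cells, a log2 ratio of -2.76 (-2.93 to -2.59) and of -0.98 in the narrowed range, just short of 2-fold. Its median per 10000 UMIs was 0 in cycling and 3.26 in non-cycling cells, with highest values of 26.2 and 40.6, so single cells of both groups overlapped. Rag2 (chr2:101624718-101632529, plus strand), its partner encoded next to it, had 39.2 and 53.3 CPM, a log2 ratio of -0.44 that turned to 0.36 in the narrowed range. Both were seen together in 15.5% of cycling and 12.2% of non-cycling cells. The higher genes were Hmgb1 and Hmgb2, chromatin proteins that assist RAG cleavage but also have general roles in dividing cells, and Xrcc5, the Ku80 end-joining subunit. The other end-joining genes included Dclre1c, the Artemis nuclease, at -1.29, Xrcc6, which encodes Ku70, at -0.94, and Lig4, the joining ligase, at -0.61. In the narrowed range 2 of 6 measured recombination genes were at least 2-fold higher, Hmgb1 and Hmgb2, and 1 was lower, Lig4. The shares over all genes there were 8.25% and 7.46%. Hmgb2 had 4401 against 371 CPM, and its log2 ratio was 3.57 (3.48 to 3.66), or 3.63 in the narrowed range.

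Light chain transcripts are given next, kappa first. Igkc (chr6:70726435-70726966, plus strand) had a median of 11.8 per 10000 UMIs in cycling and 28.9 in non-cycling cells, and 0 in the S100a8 barcodes. Its summed level, 1693 against 13170 CPM, was set by few barcodes, since 5 non-cycling barcodes with Jchain, a plasma cell gene, held 28241 of 36553 Igkc UMIs (77.3%). Without mixed barcodes the levels were 1134 and 3555 CPM, a log2 ratio of -1.65, and in the narrowed range of depth the log2 ratio was -0.93, short of 2-fold. Iglc2 had 30.1 and 564 CPM (log2 ratio -4.23, -4.467 to -3.998) and Iglc3 16.3 and 493 CPM (-4.92, -5.24 to -4.61). Iglc1 went from 1.42 to -6.20 when mixed barcodes were left out, because 1 cycling barcode held 97.7% of its UMIs there. The lambda constant genes are near-identical copies, and reads can be split among them. All 3 were at least 2-fold lower in cycling cells in the narrowed range. Kappa variable segments were seen in 13.8% of non-cycling, 5.00% of cycling and 1.796% of Dntt cells after thinning.

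Non-cycling cells were further split at Igkc of 5.52 per 10000 UMIs, the 95th percentile of the S100a8 barcodes. Of 763 cells, 664 lay above it (87.0%, 84.4% to 89.3%) and 99 at or below it, and 43 lay within 2 per 10000 of it. The cut divides a range of levels, and whether it separates cell types was not tested. Lambda constant UMIs outnumbered Igkc UMIs in 66.7% of the 99 Igkc-low cells (56.5% to 75.8%) and in 13.9% of the 664 Igkc-high cells (11.3% to 16.7%). The share was 3.70% in cycling cells, or 1.73% without mixed barcodes, and 4.73% in S100a8 barcodes. Since the split used Igkc, this ratio follows in part from it. Lambda above its own background, by the same percentile, was seen in 69.7% and 58.9% of the groups, whose intervals (59.7% to 78.5% and 55.0% to 62.7%) overlap. Its median level per 10000 UMIs was 16.0 in Igkc-low and 3.45 in Igkc-high cells, or 25.7 and 3.47 without mixed barcodes. As log2 ratios of Igkc-high to Igkc-low cells, Iglc1 stood at -1.54, Iglc2 at -0.91 and Iglc3 at 0.36. Without mixed barcodes these were -2.115, -1.69 and -0.86.

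**Figure D2:**
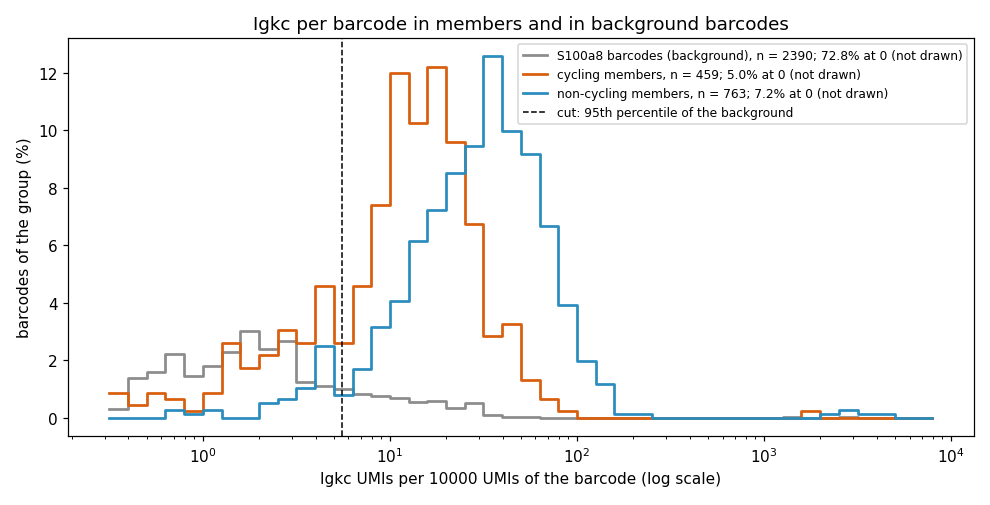
Igkc UMIs per 10000 UMIs of a barcode (log axis) against the percent of barcodes, for cycling cells, non-cycling cells and S100a8 barcodes, with the dashed line at the 95th percentile of the latter. Most non-cycling cells lie to the right of the line, while 72.8% of the S100a8 barcodes hold no Igkc UMI and are not drawn.

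Between Igkc-high and Igkc-low cells, 396 of 5749 genes (6.89%) were at least 2-fold higher in Igkc-high cells and 243 (4.23%) at least 2-fold lower, the latter falling to 124 without mixed barcodes. The median log2 ratio was 0.21, and centring on it lowered the count of higher genes, as given in the last section. Of 6 measured class II genes, 4 were higher, Cd74 at 913 against 280 CPM, H2-Aa at 230 against 50.7 CPM, H2-Ab1 at 216 against 45.8 CPM and H2-Eb1 at 123 against 41.0 CPM. The log2 ratios of these class II genes lay between 1.59 and 2.24, and between 1.28 and 2.25 without mixed barcodes. In cells of 3000 to 6000 UMIs, where each of these genes had at most 5 UMIs in Igkc-low cells, Cd74 stood at 2.83, H2-Aa at 2.48, H2-Eb1 at 1.18 and H2-Ab1 at 0.99, short of 2-fold. Vpreb1 was lower, at 20.8 against 210 CPM, with a UMI in 2.86% and 10.1% of the cells. Of the companion markers, Myl4 had 279.5 against 48.2 CPM and a UMI in 51.05% and 15.15% of the cells. Its log2 ratio was 2.535 (1.90 to 3.255), or 1.85 without mixed barcodes, while Il7r stood at 0.78 and Bach2 at 0.43. Among genes with a UMI in at least 10% of the cells of the higher group, the highest ratios were St6gal1, a sialyltransferase, at 4.42, Gm30211 at 3.23, Lpxn at 2.90, Hlx at 2.87 and Zeb2os at 2.79. St6gal1 rested on 1 UMI in Igkc-low cells (1.92 to 9.74) and on 0 without mixed barcodes, and Lpxn, Hlx and Zeb2os rested on 2 UMIs each. In cells of 3000 to 6000 UMIs these 4 genes had 0 UMIs in Igkc-low cells, so no ratio was measured there, and Gm30211 had 1. The lowest under the same limit were the cartilage genes Col2a1 at -6.39 and Acan at -6.31, 3110079O15Rik at -5.51, 1500015O10Rik at -5.46 and Sparc at -5.12. Chondrocyte markers summed to 11110 CPM in Igkc-low and 135.5 CPM in Igkc-high cells, and to 80.8 and 81.2 CPM without mixed barcodes, where Col2a1 stood at 0.67, Sparc at 1.86, 3110079O15Rik at 0.20, Acan at -1.04 and 1500015O10Rik at -1.52. Plasma cell markers summed to 2619 CPM in Igkc-high and 492 CPM in Igkc-low cells, and to 552 and 723 CPM without mixed barcodes. Erythroid markers, 6 of 6 measured at least 2-fold lower in Igkc-high cells, summed to 119300 and 39340 CPM and to 4187 and 3721 CPM without mixed barcodes.

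Of 18 measured genes of maturation and of the peripheral B cell, 10 were at least 2-fold lower in cycling cells and 2 higher, against 12.8% and 15.0% over all genes, with a median of -1.24. Ly6d had 171 against 1554 CPM (log2 ratio -3.19, -3.29 to -3.09) and Tnfrsf13c, the receptor for the survival factor BAFF, 136 against 498 CPM (-1.87, -2.00 to -1.74). S1pr1, which guides exit from marrow, had 20.1 against 130 CPM. In the narrowed range 5 of 13 measured genes were at least 2-fold lower, against 7.46% over all genes, with a list median of -0.71, and 8 of 13 were within 2-fold. S1pr1 was one of the 5, and of the others Fcmr, the IgM Fc receptor, stood at -2.48, Ltb, lymphotoxin beta, at -2.48, Ly6d at -1.94 and Tnfrsf13c at -1.46. The exceptions were Cd24a, the heat stable antigen, and Spn, which encodes CD43 of early precursors, with Cd24a at 1139 against 406 CPM (1.49, 1.40 to 1.58), or 0.99 in the narrowed range. For class II genes, 4 of 10 were at least 2-fold lower in cycling cells, with Cd74 at 339 against 818 CPM, and in the narrowed range none of 5 passed 2-fold.

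None of 25 measured transcription factor genes was at least 2-fold higher in cycling cells and 7 were lower, against 15.0% and 12.8% over all genes. The lower ones included Foxo1, an activator of Rag genes, at -1.40, Ikzf3, which encodes Aiolos, at -1.63 and Spib at -1.33. Of these, Ikzf3 passed 2-fold in the narrowed range (-1.39), where Id3, an inhibitor of E proteins, was higher. Bach2 had 390 against 665 CPM and a log2 ratio of -0.77. Il7r had 259 and 272 CPM and a log2 ratio of -0.07 (-0.20 to 0.06), the closest of the markers to equality, although its UMIs were seen in 83.7% and 47.1% of the cells at their different depths and in 41.5% and 36.7% after thinning. Myl4 had 638 against 245 CPM, a log2 ratio of 1.38 (1.262 to 1.501) and of 0.93, short of 2-fold, in the narrowed range. Of 12 interleukin 7 signalling genes, Ccnd3, the D cyclin used by pre-B cells, was higher at 1.67 and at 1.07 in the narrowed range, and Socs1, a feedback inhibitor, Socs3 and Il2rg, the common gamma chain, were lower, with Socs1 at -2.26.

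Of 12 genes of cell cycle exit, 3 were at least 2-fold higher and 2 lower in cycling cells, against 15.0% and 12.8% over all genes, and of 6 in the narrowed range 0 were higher and 1 lower. Btg1, an antiproliferative gene, had 495 against 1982 CPM (-2.00, or -1.15 in the narrowed range), whereas Cdkn2c, which encodes the inhibitor p18, and Rbl1, which encodes p107, were higher in cycling cells at 3.40 and 3.30. Bmf, a pro-apoptotic BCL-2 family member, had 24.4 against 131 CPM (-2.42, or -1.90 in the narrowed range), and 4 of 13 measured genes of that family were at least 2-fold lower and none higher. In the narrowed range Bmf was the 1 lower gene of 5 measured, against 7.46% over all genes. Beside the 15.0% of all genes, 4 of 14 glycolysis genes were at least 2-fold higher, with Gapdh at 1.74 and Ldha at 1.64, and 8 of 32 oxidative phosphorylation genes. In the narrowed range, where the share over all genes was 8.25%, these counts were 1 of 6 (Gapdh) and 2 of 32. Of 14 immediate-early and heat-shock genes, which are known to respond to tissue digestion, 2 were higher and 6 lower in cycling cells, against 15.0% and 12.8% over all genes, with Jun at -1.46. In the narrowed range 1 of 10 was higher and 1 lower, against 8.25% and 7.46% over all genes, with Jun at -0.25. Beyond the lists and the lambda genes, the lowest ratios were Lynx1 at -3.66, Tmem163 at -3.63, Gbp9 at -3.59, Reln at -3.54, Gm8369 at -3.53, Pim2, a survival kinase, at -3.33, and Kdm5b at -3.29, among genes with a UMI in at least 10% of non-cycling cells.

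**Figure D3:**
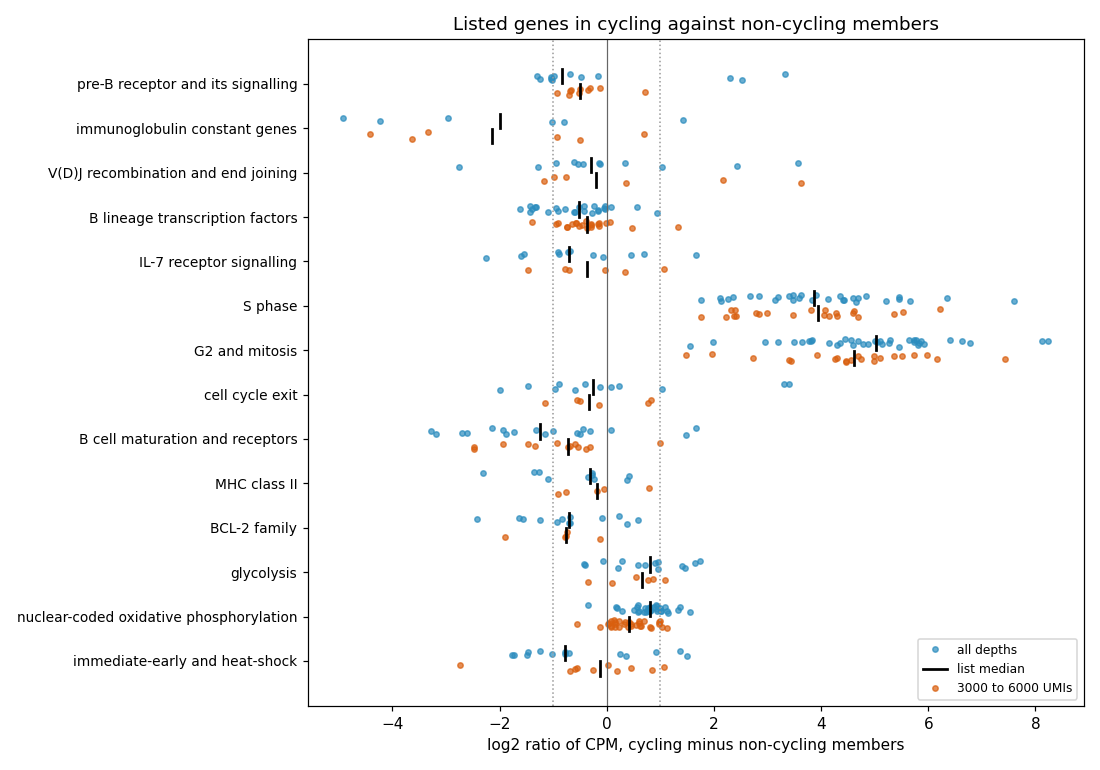
Log2 ratios of CPM, cycling minus non-cycling cells, for each measured gene of 14 lists at all depths (upper row of a list) and in cells of 3000 to 6000 UMIs (lower row), with black ticks at list medians and dotted lines at 2-fold. Both cell cycle lists lie wholly to the right. The 3 surrogate light chain genes stand apart from the other pre-B receptor genes in the upper row, while no measured pre-B receptor gene passed 2-fold in the lower row.

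The neighbouring stages place these values. Dntt cells, 162 barcodes with the same gene, mitochondrial, Cd79a and S100a8 limits and at least 1 Dntt UMI, whatever their Vpreb3 and Ms4a1, had a median of 8474 UMIs, and Ms4a1 cells, 299 barcodes with no Dntt, at least 2 Ms4a1 and at most 1 Vpreb3 UMIs, a median of 3376. A further 435 barcodes carried both Vpreb3 and at least 2 Ms4a1 UMIs. Vpreb1 was at 1374 CPM in Dntt cells, 282 in cycling, 49.0 in non-cycling, 37.1 in Vpreb3 Ms4a1 and 2.86 in Ms4a1 cells, and the intervals of non-cycling and Vpreb3 Ms4a1 cells (41.1 to 58.0 and 29.3 to 46.3) overlap. Rag1 had 202, 66.6, 452, 34.2 and 11.4 CPM in that order, so its level in cycling cells was below that of both Dntt and non-cycling cells. Myl4 was highest in cycling cells, at 638 CPM against 132 in Dntt and 40.01 in Ms4a1 cells. Bach2 was highest in non-cycling cells, at 665 CPM against 179 in Dntt and 144 in Ms4a1 cells. Il7r was at 162, 259, 272, 58.0 and 20.01 CPM, and Cd74 at 223, 339, 818, 3150 and 5092 CPM.

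**Figure D4:**
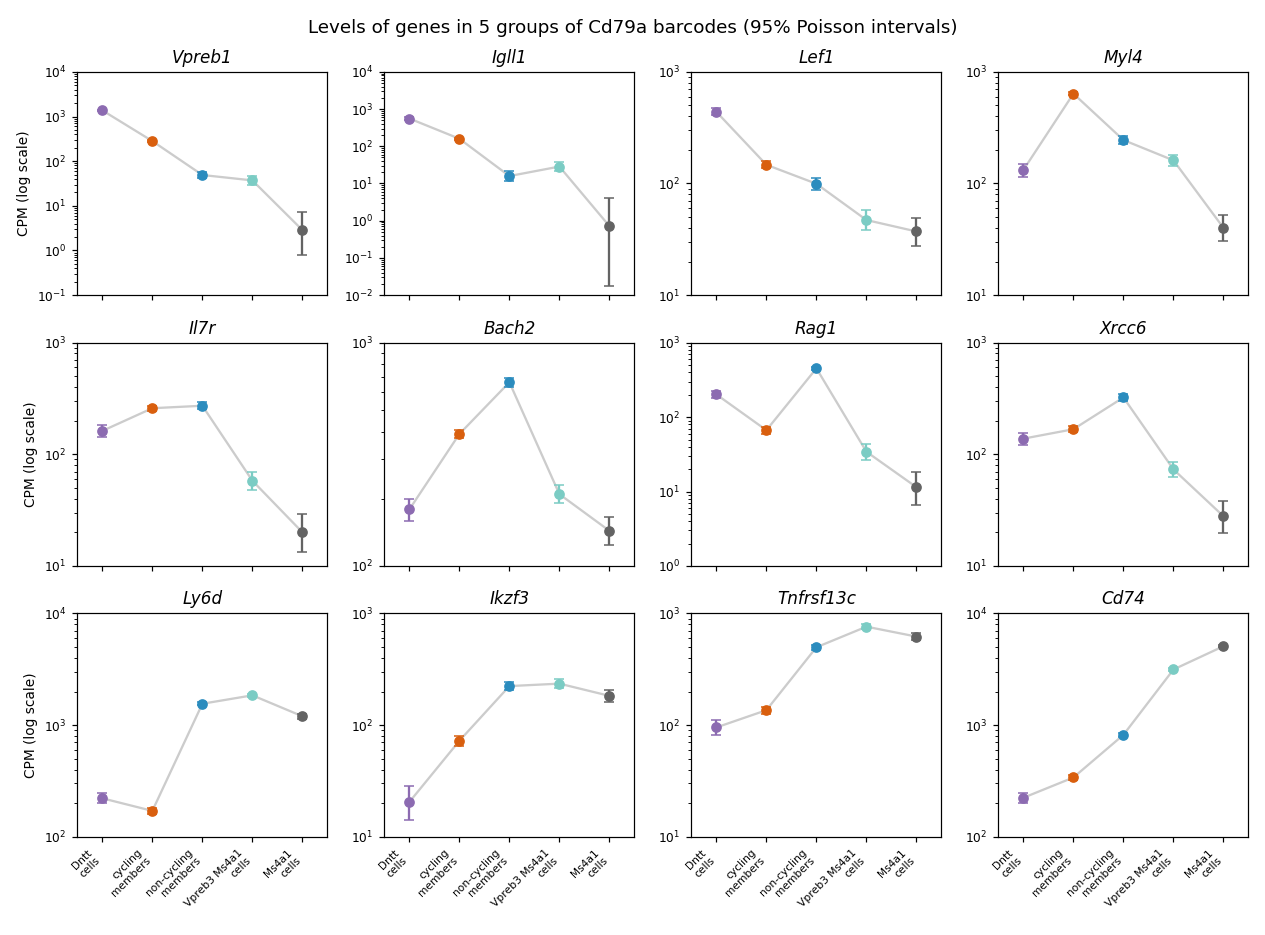
Levels of 12 genes in CPM (log axis) in Dntt, cycling, non-cycling, Vpreb3 Ms4a1 and Ms4a1 cells, with 95% Poisson intervals on summed counts. Vpreb1 and Igll1 are highest in Dntt cells, Rag1 is higher in non-cycling cells (452 CPM) than in cycling cells (66.6 CPM), and Cd74 is highest in Ms4a1 cells (5092 CPM).

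Against Dntt cells, 394 of 9224 genes (4.27%) were at least 2-fold higher in the 1303 Vpreb3 cells and 462 (5.01%) at least 2-fold lower, or 593 and 747 when each cell weighed the same. Markers of other cell types were among them. Higher were 3 of 3 basophil or mast, 3 of 9 neutrophil, 2 of 5 monocyte or macrophage and 2 of 4 osteoblast markers, with none of these lists lower. Of 6 chondrocyte markers 1 was higher and 2 were lower. Basophil or mast markers summed to 137 CPM over the Vpreb3 cells and to 2.31 CPM without mixed barcodes. The surrogate light chain genes were the 3 lower members among 12 of the pre-B receptor list, with Vpreb1 at -2.76 (-2.85 to -2.67), Vpreb2 at -3.15 and Igll1 at -2.35. None of 30 S phase genes and none of 40 genes of G2 and mitosis passed 2-fold in either direction, and the cycling share of the Vpreb3 cells enters that value. None of 12 recombination genes did so, with Rag1 at -0.04 (-0.21 to 0.13), although Rag1 differed between cycling and non-cycling Vpreb3 cells. Transcription factors went both ways, with Ikzf3 at 2.60, Spib at 1.78 and Bach2 at 1.42 among 6 higher, and Erg, a factor of stem and early progenitor cells, at -4.89, Lef1 at -1.72 and Tcf4 at -1.52 among 4 lower. Of the named genes, Iglc1 at 4.90, Igkc at 4.47, Reln at 3.77 and Iglc3 at 3.32 were highest after Igha at 7.61. Without mixed barcodes Reln stood at 3.63, Iglc3 at 3.04, Igkc at 2.72, Iglc1 at 2.28 and Igha at 0.75, so their order changed, and Reln rested on 3 UMIs in Dntt cells. The lowest named genes were A630023P12Rik at -5.79, Myl10 at -5.05, Arpp21 at -5.03, Erg at -4.89 and Gm30948 at -4.54.

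Against Ms4a1 cells, 1097 of 9129 genes (12.0%) were at least 2-fold higher in Vpreb3 cells and 645 (7.07%) at least 2-fold lower. Class II genes were lower in 10 of 10 cases, with a median of -2.76, Cd74 at -3.34 (-3.39 to -3.28) and H2-Aa at -2.98. Maturation genes were lower in 12 of 21 cases, including Fcmr at -4.02, Cxcr5, the follicle homing receptor, at -4.50 and Fcer2a, the low-affinity IgE receptor, at -5.60. Recombination genes were higher in 6 of 12, with Rag1 at 4.10 (3.40 to 4.91), and Rag2 at 5.92 against a single UMI in Ms4a1 cells (3.44 to 11.23). Myc, at 10.5 against 186 CPM, and Ccnd2, at 43.5 against 272 CPM, were lower in Vpreb3 cells, while 28 of 30 S phase and 39 of 40 G2 and mitosis genes were higher. Of 14 immediate-early and heat-shock genes 7 were lower, with Nr4a1 at -3.38 and Egr1 at -2.66, and the named lowest genes were Il4i1 at -6.13, Fcer2a, Shisa8 at -5.38, Egr3 at -5.19 and Egr2 at -4.59. The named highest were Igll1 at 7.26, Nav2 at 6.36, Vpreb1 at 6.15, Igha at 6.13 and Rag2. Igll1 and Nav2 rested on 1 UMI each and Vpreb1 on 4 in the Ms4a1 cells, and Igha came to -0.72 without mixed barcodes.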

How the data were processed

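Droplet libraries were aligned and counted by the authors with Cell Ranger 3.1.0 against mm10 and a reference of exogenous sequences, and Seurat 3 is also named in the submitters' processing notes. The deposited values are UMI counts per gene and barcode, without normalization, for 31053 genes and 12564 barcodes (91463572 UMIs), and the lowest barcode has 500 UMIs. Every column maps to the 1 pooled group. Replicate identity is not recorded, so nothing was tested across samples.

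Counts were summed over the cells of a group and divided by all UMIs of the group to give CPM, with exact Poisson intervals. Shares have Clopper-Pearson intervals and log2 ratios exact conditional intervals, all at 95%, and a group at 0 was set to 3 counts. Genes needed at least 50 UMIs in both groups together, and a difference of at least 2-fold was counted as higher or lower. Cd79a, Vpreb3, Dntt, Ms4a1 and S100a8 were left out of every comparison. Mki67 and Top2a were left out of the comparison of cycling with non-cycling cells and of the Igkc split, and Igkc out of the split made on it. Mki67 and Top2a remained among the 40 genes of G2 and mitosis compared with Dntt and Ms4a1 cells. The thinned cycling and Igkc shares are means over 20 draws of 2000 UMIs per cell. Thinned shares of cells with a UMI of a single gene are exact expectations for 2000 UMIs taken without replacement. Named genes were, leaving out immunoglobulin segments, mitochondrial and ribosomal genes, the 10 highest and 10 lowest ratios for cycling cells and the 5 highest and 5 lowest elsewhere, with a UMI in at least 10% of the cells of the higher group, beside members of the gene lists. Of 266 list entries, 2 (Aldoa and Atp5o) had no row under that symbol alone. Symbols shared by 2 gene IDs carried the ID as a suffix and could not match a list entry. The cells and the lists were chosen with earlier results of these data known. Doublets were scored with Scrublet on all barcodes (expected share 6%, threshold 0.209), which called 506 of 12564 (4.03%), and were kept. The code was tested on simulated data. Python 3.11.15, numpy 2.4.6, scipy 1.17.1, pandas 2.3.3, scanpy 1.11.5 and matplotlib 3.10.9 were used, and gene coordinates are from GENCODE M21 on GRCm38.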

Additional observations from a re-analysis of the deposited data

Results flagged for a closer look

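Exogenous sequences were counted in a separate matrix that the comparisons above did not use, and 4 of them, WPRE, tdTomato, EGFP and Cre, were seen in the Vpreb3 cells. WPRE, a viral RNA element in the tdTomato reporter, had a UMI in 21.3% of the cells (19.1% to 23.7%), against 34.4% of the S100a8 barcodes. The tdTomato sequence had a UMI in 0.691% of the cells (0.316% to 1.31%), against 1.26% of the S100a8 barcodes. EGFP had a UMI in 0.614% (0.265% to 1.21%), against 0.293% (0.118% to 0.602%), and the intervals overlap. The S100a8 barcodes were deeper, with a median of 7416.5 UMIs against 3543, and the part of depth in these shares was not tested. Cre had a UMI in 1 cell, and LacZ and IRES in 0 of 1303 cells, where 3 counts would make a share of 0.230%.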

How the results depend on the processing

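No paired analysis was possible because the deposited columns carry no replicate number and no map from barcodes to the 8 labelled samples, and leaving out each replicate was not run for the same reason. Of 130 main values under alternatives, 100 stayed within 1.5 times or within the counting interval and 30 moved. The study's floor of 1600 genes left 569 cells, a cycling share of 76.8%, an Igkc share of 78.9% and 213 genes higher in Igkc-high cells. Vpreb3 of at least 4 UMIs gave shares of 39.5% and 89.6%, thinning 29.4% and 83.4%, doublets left out, also from the S100a8 barcodes that set the Igkc limit, an Igkc share of 92.0%, and the 99th percentile for Igkc a share of 62.6% with 98 genes higher. Centring on the median gave 226 genes higher in Igkc-high cells. Weighing each cell the same gave 593 genes higher and 747 lower against Dntt cells. At least 20 UMIs gave 746 higher and 592 lower for Igkc-high cells, 600 and 806 against Dntt cells and 1034 lower against Ms4a1 cells. At least 200 UMIs gave 778 and 523 for cycling cells, 48 and 55 for Igkc-high cells, 175 and 135 against Dntt cells and 620 and 276 against Ms4a1 cells; the number of genes measured changes with this limit. Chosen after seeing the data were the bins of depth and of surrogate light chain UMIs, the range of 3000 to 6000 UMIs (314 and 284 genes for cycling cells) and leaving out mixed barcodes, which gave 124 genes lower in Igkc-high cells. Each of the 50 named genes was followed only in the comparison that named it. Of 614 such values at the minimum of UMIs, 510 stayed, 101 moved beyond the counting interval and 3 reversed. The 3 reversals were all without mixed barcodes: Col2a1 (0.67) and Sparc (1.86) in Igkc-high cells and Igha (-0.72) against Ms4a1 cells. Iglc1 in cycling cells also turned without mixed barcodes, but that comparison did not name it. Below that minimum 3110079O15Rik (0.20) also turned in Igkc-high cells without mixed barcodes. In cells of 3000 to 6000 UMIs, outside those 614 values, Sparc (1.86, on 1 UMI in Igkc-low cells) turned in Igkc-high cells and Igha (-0.40) against Ms4a1 cells, and St6gal1, Hlx, Lpxn and Zeb2os had 0 UMIs in Igkc-low cells. Other causes were not tested. Non-cycling cells are shallow, with a median of 2871 UMIs, which limits shares of cells with a UMI more than summed levels.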
